A study of Homo sapiens with 5 samples.

Results

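Synaptic vesicle and exocytosis genes, mostly for proteins that dock, fuse and recycle neurotransmitter vesicles, were followed in IMR32 cells over 5 time points. The set was a written list of 52 genes, chosen with earlier results of these data known and matched by symbol to the probe sets of the array. Of these, 51 had at least 1 probe set (124 in all) out of the 19775 genes named on the array, and RIMS3 is not analysed here. Each gene was represented by its brightest probe set. For 42 genes the mean of that probe set over the 5 arrays reached 17.9, the median of all signals, and these 42 were tested.

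IMR32 is an established human neuroblastoma line, a tumour of the sympathetic neuron lineage. All 5 RNA samples came from IMR32 cells stably carrying an inducible short hairpin RNA (shRNA) aimed at the MEIS1b form of MEIS1, a homeobox transcription factor. The 0 h group had no doxycycline, and the 24, 48, 96 and 192 h groups had doxycycline, which switches the hairpin on, for that long. Each group is 1 Affymetrix Human Genome U133 Plus 2.0 array with no replicate, and whether the line is a clone or a pool is not given in the sources used here. Cells with doxycycline but without this hairpin, or kept without doxycycline to a later time, are not analysed here, so hairpin, doxycycline and time in culture cannot be told apart. The study followed this course to see which genes respond to loss of MEIS1. The targeted MEIS1 transcript read 1052 at 0 h and 851.5, 847.2, 857 and 786.6 at the later times, or 74.9% of 0 h at 192 h, with a fitted log2 change of -0.33 ± 0.14 (SE) and an adjusted p of 0.251.

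As background, a vesicle docked at the membrane is held by SNARE proteins, which zip together from both sides; synaptotagmins sense calcium and trigger the fusion. RAB3 GTPases, RIM proteins, MUNC13 and CAPS proteins bring vesicles to the release site and prime them, and dynamin, amphiphysin and synaptojanin retrieve the membrane afterwards. Sympathetic neurons and chromaffin cells use the same machinery to release noradrenaline from dense-core vesicles.

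Of the 42 tested genes 9 rose and 1 fell over the time course. The genes that rose were NSG2, ICA1, CADPS, SYT17, SNAP25, SYT11, SNAP91, SYT4 and STX1A, and the gene that fell was SNAP23, the SNAP25 relative used in many cell types outside neurons. A gene was said to rise or fall when a straight line of log2(signal + 4.7) against the time step had a Benjamini-Hochberg adjusted p under 0.05 in limma; the change is that line's difference between 0 and 192 h. Every ratio or fold given here is likewise one of signal + 4.7, so it lies nearer to 1 than the ratio of the signals themselves. By this rule 3.47% of 11944 tested genes passed, 2.02% rising and 1.46% falling, against 23.8% of the tested vesicle genes, 21.4% rising. Because the list was chosen with earlier results of these data known, such shares describe it and are no test of it. Of 79 tested genes on a second list of the pathway, given below, 3.8% passed. The fitted change was above 0 for 35 of the 42 (83.3%; 32 with array medians set equal, 34 with quantile normalization) and 50.3% of all tested genes. Its median was 0.42 for the vesicle genes and 0.003 for all tested genes. An unadjusted p under 0.05 was reached by 20 of the 42, against 17.0% of all tested genes. A gene that is bright only on late arrays can pass a filter on mean signal through those arrays, so these counts describe the tested genes; without the filter the median over the 51 genes with a probe set was 0.38, with 38 above 0 and 13 below.

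Leaving out the 0 h array lowered the number of vesicle genes that rose to 6, and leaving out the 192 h array lowered it to 3. Over all tested genes the number that rose also dropped, from 241 to 121 and to 143, respectively. SNAP23 did not pass without the 0 h array (adjusted p = 0.132). With the signal filter removed, 1 vesicle gene (SYT11) passed among 19775 genes, of which 0.106% passed.

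**Figure D1:**
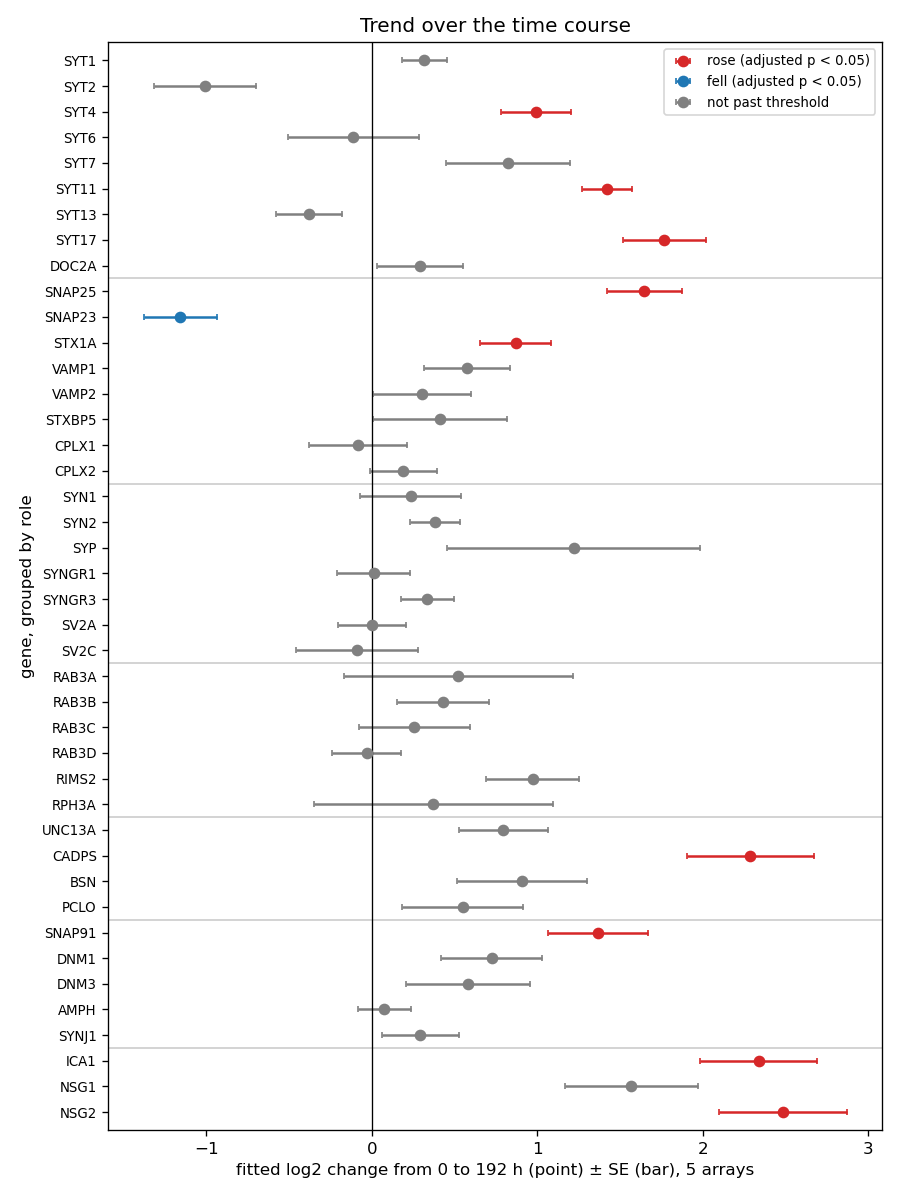
Fitted log2 change from 0 to 192 h of the 42 tested vesicle genes, grouped by role; points are the slope times 4 steps, bars its SE from limma over 5 arrays, and colour marks an adjusted p under 0.05. NSG2 (2.48), ICA1 (2.34) and CADPS (2.29) lie farthest to the right, and SNAP23 (-1.16) and SYT2 (-1.01) farthest to the left.

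Promoter sequence was read for the genes that rose or fell. The promoter table used here, made from RefSeq (GRCh38.p14), covered 40 of the 52 genes and 7 of the 10 that rose or fell; SNAP25, SYT17 and NSG2 are not in the motif counts. The 250 bases before each gene's start were read. The windows shown are those of SYT11, whose call held under each alternative tried, SYT4 and SNAP91, which share the letters TGACG with it, ICA1, which had 1 of the largest changes among the 42, and SNAP23, which fell. They lie at chr1:155859317-155859566 (+ strand), chr18:43277491-43277740 (- strand), chr6:83709102-83709351 (- strand), chr7:8262168-8262417 (- strand) and chr15:42495384-42495633 (+ strand). Each runs 5′ to 3′ towards the gene, and capitals mark a match, on either strand, to TGACG (the CRE half-site), CAGCTG (an E-box) or GGGCGG (a GC box).

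SYT11: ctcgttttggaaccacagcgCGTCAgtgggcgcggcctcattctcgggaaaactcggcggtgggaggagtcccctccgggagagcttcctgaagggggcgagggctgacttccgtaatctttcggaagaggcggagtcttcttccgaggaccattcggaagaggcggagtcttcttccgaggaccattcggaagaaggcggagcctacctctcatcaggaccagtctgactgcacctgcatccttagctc

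SYT4: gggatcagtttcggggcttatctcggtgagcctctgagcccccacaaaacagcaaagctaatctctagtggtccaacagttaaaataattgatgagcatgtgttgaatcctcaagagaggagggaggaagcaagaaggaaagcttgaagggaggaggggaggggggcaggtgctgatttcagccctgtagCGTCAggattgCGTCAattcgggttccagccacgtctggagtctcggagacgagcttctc

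SNAP91: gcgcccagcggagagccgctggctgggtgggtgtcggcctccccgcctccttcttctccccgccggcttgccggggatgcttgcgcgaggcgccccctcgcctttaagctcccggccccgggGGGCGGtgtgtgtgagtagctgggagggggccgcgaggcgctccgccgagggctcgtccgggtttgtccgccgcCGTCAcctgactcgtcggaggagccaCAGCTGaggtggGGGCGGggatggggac

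ICA1: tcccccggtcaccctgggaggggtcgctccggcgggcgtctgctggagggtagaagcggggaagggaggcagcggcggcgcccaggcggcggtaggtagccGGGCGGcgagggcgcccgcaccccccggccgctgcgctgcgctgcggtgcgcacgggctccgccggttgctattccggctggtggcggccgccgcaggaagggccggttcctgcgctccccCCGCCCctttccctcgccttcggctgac

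SNAP23: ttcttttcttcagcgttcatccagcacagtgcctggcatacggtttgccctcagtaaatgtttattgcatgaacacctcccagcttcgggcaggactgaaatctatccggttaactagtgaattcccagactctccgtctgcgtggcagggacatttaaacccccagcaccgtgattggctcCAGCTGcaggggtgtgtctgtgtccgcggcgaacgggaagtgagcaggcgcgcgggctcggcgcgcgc

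TGACG was in 3 of the 7 promoters (SYT4, SYT11 and SNAP91), in 10 of the 40 vesicle gene promoters and in 21.2% of 35116 promoters of the same length. In SYT4 it occurs 2 times, ending 55 and 44 bases before the start. TGACAG, the half-site bound by MEIS proteins, was in none of the 7 (0 of 7), in 1 of the 40 (2.5%; RAB27B) and in 13% of all promoters. The REST half-site GGACAG was in 0 of the 7, in 10 of the 40 and in 17.2% of all. CAGCTG was in 2 of the 7 (SNAP91 and SNAP23), in 8 of the 40 (20%) and in 14% of all. GGGCGG was in 3 of the 7 (STX1A, SNAP91 and ICA1), in 30 of the 40 (75%) and in 42.6% of all, and STX1A holds 7 copies within 250 bases. The CADPS window holds none of the 5 motifs. None of these motifs overlaps another in the windows shown. The vesicle gene promoters had a median GC content of 68.4%, against 58% for all promoters. A match is a run of letters, not a measured binding site.

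Genes for vesicle and receptor traffic had the largest median of the 7 role groups. Of 3 tested genes 2 rose, against 2.02% of all tested genes, with a group median of 2.34. NSG2, a neuronal endosomal protein, had signals of 15, 25.9, 24.8, 71.5 and 102.7 in the order 0, 24, 48, 96 and 192 h, the order used for all genes here. It was low on the first 3 arrays and high on the last 2, and its fitted change was 2.48 ± 0.39 (SE; adjusted p = 0.00477). ICA1, a BAR-domain protein of secretory granules and an islet autoantigen, read 38.5, 37.1, 49, 125.7 and 180.7. Its signal lay between 37.1 and 49 up to 48 h and was higher on both later arrays (2.34 ± 0.35, adjusted p = 0.00427). The ICA1 probe set used here carries the suffix that marks possible binding to other transcripts. The other 2 that passed the filter gave 1.75 and 2.13. The probe set at 2.13 read 5.9 at 0 h and 51.6 at 192 h, so it passed the filter through its later arrays. Those under the filter gave 1.01, -0.55 and 0.46. NSG1, the NSG2 relative that sorts receptors in dendritic endosomes, read 28.2, 51, 30.6, 68.4 and 107. Its fitted change of 1.57 ± 0.40 had an adjusted p of 0.0548, and its other probe sets gave 2.15 and 1.03. Without the 192 h array NSG2 (adjusted p = 0.0737) and ICA1 (0.0596) did not pass; NSG1 passed under 8 of 14 alternatives, with adjusted p from 0.0129 to 0.35 over all 14.

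**Figure D2:**
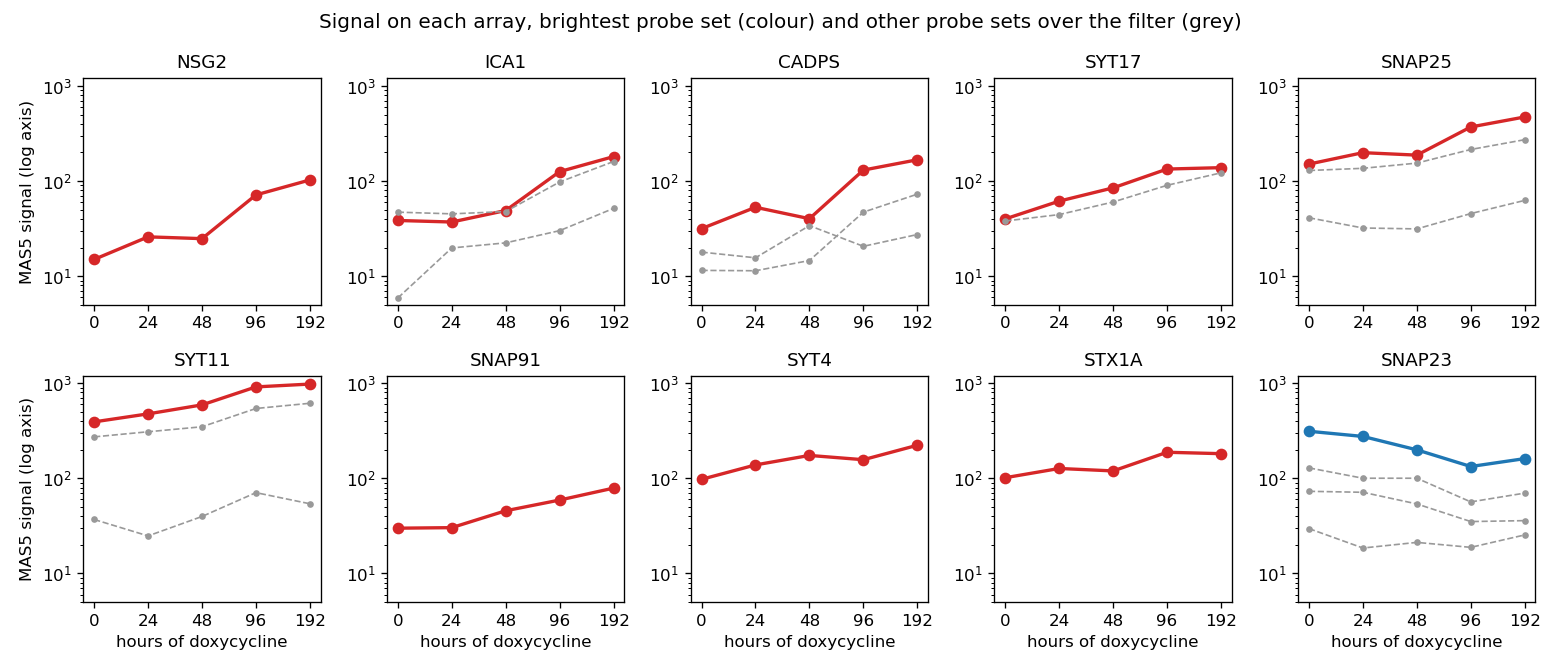
MAS5 signal on a log axis against hours of doxycycline, 1 array per time point, for the 10 genes past the threshold; the coloured line is the brightest probe set and grey dashed lines are other probe sets over the filter. NSG2 goes from 15 to 102.7 and CADPS from 31.6 to 167.3, with the largest step between the 48 and 96 h arrays, and SNAP23 goes from 312.3 to 161.1.

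Among priming and active zone genes, 1 of 4 tested rose and all 4 had a change above 0 (median 0.85). Of all tested genes 2.02% rose and 50.3% had a change above 0. CADPS encodes CAPS1, which primes dense-core vesicles for release. It read 31.6, 53, 40.2, 130.4 and 167.3, so that the 2 late arrays stood apart from the first 3 (2.29 ± 0.38, adjusted p = 0.00731; 0.074 without the 192 h array). Of 2 further CADPS probe sets over the filter, 1 ran from 11.5 to 72.8 (2.48) and the other from 17.9 to 27.4 (0.53). The first of these read 14.6 or less up to 48 h, so it passed the filter through the 2 late arrays. The 3 probe sets under the filter gave 1.28, -0.33 and -0.35. UNC13A, the MUNC13-1 priming factor, read 45.7, 54.4, 69.9, 86 and 76.3 (0.80 ± 0.27, adjusted p = 0.144). Of the large active zone scaffolds, BSN (bassoon) read 17.7, 27.2, 32.2, 46.4 and 34.2 (0.91 ± 0.39, adjusted p = 0.266) and PCLO (piccolo) 22, 23.9, 29.1, 30.5 and 34 (0.55 ± 0.37, adjusted p = 0.501). Both were lowest at 0 h, and neither passed.

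The SNARE group held genes that moved in opposite directions: of 8 tested, 2 rose and 1 fell (median 0.36). Of all tested genes 2.02% rose and 1.46% fell. SNAP25, the plasma membrane SNARE of neurons, read 150.8, 198.8, 187.3, 370.3 and 471.8. The 2 late arrays were above the other 3, at 3.06-fold the 0 h value of signal + 4.7 by 192 h (1.65 ± 0.23, adjusted p = 0.00265). SNAP23, its relative in general secretion, read 312.3, 275.6, 199.2, 133.1 and 161.1. It was highest at 0 h, lowest at 96 h and 1.91-fold lower in signal + 4.7 at 192 h than at 0 h (-1.16 ± 0.22, adjusted p = 0.0137). The SNAP25 signal, read with its own probe set, was above its 0 h value on all 4 induced arrays and the SNAP23 signal below. All 3 SNAP25 probe sets had a positive change (1.65, 1.10 and 0.62) and all 4 SNAP23 probe sets a negative one (-1.16, -0.98, -1.12 and -0.14). The dimmest SNAP23 probe set read 29.6 at 0 h and 25.4 at 192 h, and with the 4 averaged SNAP23 did not pass (-0.85, adjusted p = 0.0873). SNAP23 also did not pass without the 0 h array (0.132).

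**Figure D3:**
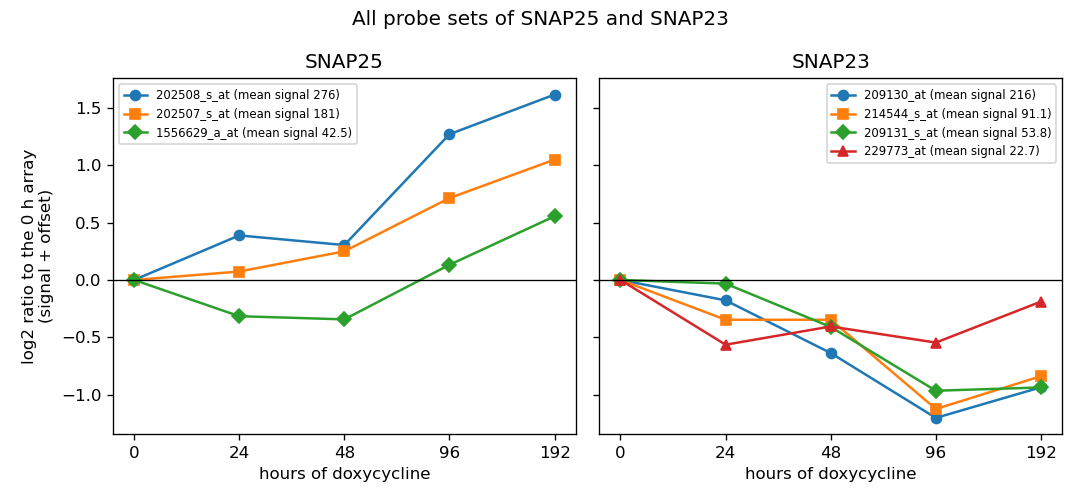
Log2 ratio to the 0 h array of signal + 4.7, against hours of doxycycline, for all 3 probe sets of SNAP25 (left) and all 4 of SNAP23 (right). The 3 SNAP25 lines end above 0 at 192 h, with 1 below 0 at 24 and 48 h, and the 4 SNAP23 lines end below 0.

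STX1A, syntaxin-1A, which pairs with SNAP25 at the plasma membrane, read 101.5, 126.9, 119.6, 187.9 and 181.6 (0.87 ± 0.21, adjusted p = 0.0468). Its signal was higher on both late arrays than on any earlier one. The STX1A call was close to the threshold and was lost without the 0 h (0.257), 24 h (0.0667), 96 h (0.125) or 192 h array (0.118), and with array medians set equal (0.0938) or quantile normalization (0.0545). The vesicle SNAREs did not pass: VAMP1 read 52.2, 52.8, 59.7, 64.1 and 80.9 (0.57 ± 0.26, adjusted p = 0.29) and VAMP2 87.7, 61.4, 77.7, 71.8 and 107.1 (0.30 ± 0.29, adjusted p = 0.687). VAMP1 was higher at each successive time, whereas VAMP2 was lowest at 24 h. The complexins, which clamp the assembled SNAREs, were at -0.09 (CPLX1) and 0.19 (CPLX2), and STXBP5 (tomosyn), which holds syntaxin back, at 0.41.

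Of 9 tested synaptotagmin and DOC2 genes (calcium sensors and their relatives), 3 rose and 0 fell (median 0.32). The shares over all tested genes were 2.02% and 1.46%. An unadjusted p under 0.05 in limma, in either direction, was reached by 6 of the 9, against 17.0% of all tested genes. SYT11, a synaptotagmin that does not bind calcium, read 392.1, 475.9, 591.7, 914.1 and 979. It was higher at each successive time, 2.48-fold 0 h in signal + 4.7 by 192 h (1.42 ± 0.15, adjusted p = 4.18e-04), with all 3 probe sets positive (1.42, 1.25 and 0.94). SYT17, an atypical synaptotagmin without a transmembrane segment, read 40, 61.5, 84.8, 133.7 and 138.3. It too was higher at each step (1.77 ± 0.25, adjusted p = 0.00299), and its other probe set went from 38 to 122 (1.64). SYT4, which sits on dense-core vesicles, read 97.6, 138.3, 174, 156.9 and 222.6 (0.99 ± 0.21, adjusted p = 0.0244). Every induced array was above 0 h, but SYT4 did not pass without the 0 h (0.295) or the 192 h array (0.149).

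SYT1, the fast calcium sensor of synaptic vesicles, read 1297.1, 1436.7, 1412, 1690 and 1576.8. Its induced arrays were all above 0 h, by 1.22-fold in signal + 4.7 at 192 h, and the change of 0.32 ± 0.14 had an adjusted p of 0.259. SYT2, the other fast sensor, read 76.3, 57.5, 58.9, 33.8 and 38.3. It was highest at 0 h (-1.01 ± 0.31, adjusted p = 0.106) and passed only with array medians set equal (0.0487). SYT7, a slow high-affinity sensor, read 18.3, 27.4, 35.2, 31.6 and 39.4 (0.82 ± 0.37, adjusted p = 0.289). The fitted changes of DOC2A, SYT6 and SYT13 were 0.29, -0.11 and -0.38, with adjusted p of 0.653, 0.935 and 0.363.

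Of the 6 tested RAB3 and effector genes 0 passed in limma, against 3.47% of all tested genes, and the median change was 0.40. An unadjusted p under 0.05 in limma was reached by 1 gene, and by 17.0% of all tested genes. The 1 RAB3 or effector gene was RIMS2, a RIM scaffold that tethers vesicles to calcium channels, which read 38, 46.5, 47.5, 62.9 and 81.5. It was higher at each step, and its signal + 4.7 at 192 h was 2.02-fold that at 0 h (0.97 ± 0.28, adjusted p = 0.0852). Another RIMS2 probe set over the filter read 28, 14.9, 25.9, 27.9 and 32.9 (0.46), and a dim one under it gave 1.17. With the probe sets over the filter averaged, the RIMS2 change was 0.71 (adjusted p = 0.253 in limma). The GTPases that mark vesicles for docking had no common course. RAB3A read 31.1, 7, 43.6, 39.4 and 24.3 (0.52 ± 0.69, adjusted p = 0.785), RAB3B was at 0.43, RAB3C at 0.26 and RAB3D at -0.03. RAB3A was lowest at 24 h, and without that array its change was -0.19. RPH3A, rabphilin, an effector of RAB3, read 16.1, 21.6, 4.3, 34.9 and 18.7 and its SE of 0.72 exceeded its change of 0.37.

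Of 7 tested vesicle-associated protein genes (synapsins, synaptophysin, synaptogyrins and SV2 proteins) 0 passed in limma, against 3.47% of all tested genes. Their median change was 0.24. An unadjusted p under 0.05 in limma was reached by 1 gene, and by 17.0% of all tested genes. The 1 vesicle-associated protein gene was SYN2, a synapsin that tethers vesicles to each other, which read 242, 284.9, 285.7, 316.5 and 321. It was higher at each step by small amounts (0.38 ± 0.15, adjusted p = 0.217), and all 5 SYN2 probe sets had a positive change. SYN1 read 53.8, 40.8, 52.7, 48.6 and 61.6 (0.24). SYP, synaptophysin, a common marker of vesicles, read 8.2, 29.9, 4, 29.9 and 32.4. Its arrays followed no order, and at these low signals the 2.88-fold ratio of signal + 4.7 at 192 h came with an adjusted p of 0.463. SYNGR3, a synaptogyrin, read 272, 246.9, 274.9, 297.6 and 332.9 (0.34 ± 0.16, adjusted p = 0.308). SYNGR1 (0.01) and the transporter-like SV2A (0.002) and SV2C (-0.09) ended at 0.90-, 0.86- and 0.77-fold of their 0 h values of signal + 4.7.

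**Figure D4:**
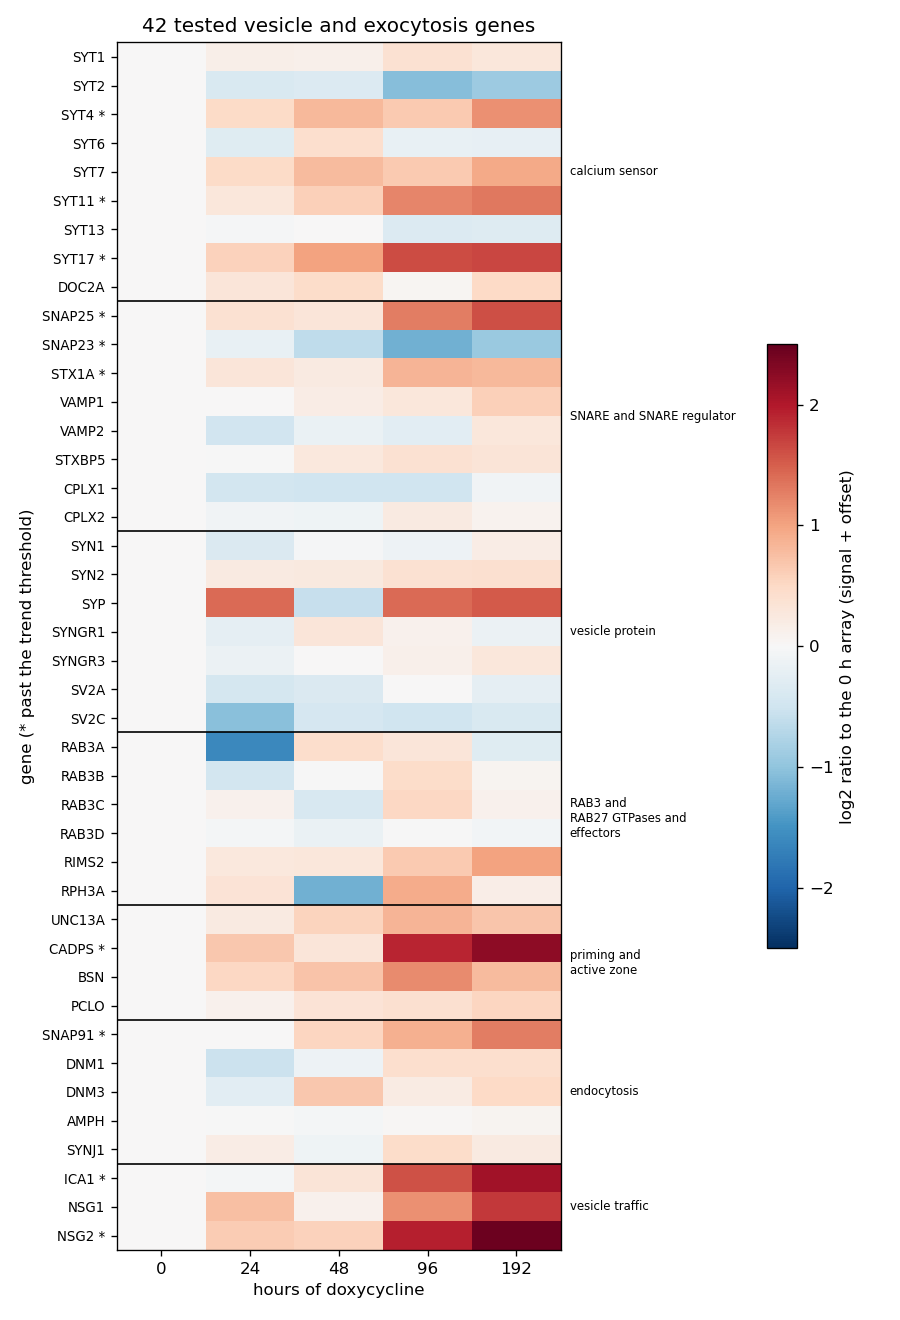
Log2 ratio of signal + 4.7 to the 0 h array (colour) for the 42 tested vesicle genes (rows, grouped by role) at 0 to 192 h of doxycycline (columns); an asterisk marks genes past the threshold. The last 2 columns hold 9 and 11 genes at least 2-fold above 0 h on this scale, against 1 in each of the 24 and 48 h columns.

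Of 5 tested endocytosis genes 1 rose, against 2.02% of all tested genes. All 5 had a change above 0 (median 0.58), against 50.3% of all tested genes. With array medians set equal AMPH was at -0.033. SNAP91, the neuronal clathrin adaptor AP180, read 29.9, 30.3, 45.6, 59.1 and 78.9. It was higher at each successive time, and its signal + 4.7 at 192 h was 2.42-fold that at 0 h (1.36 ± 0.30, adjusted p = 0.0297). The SNAP91 call was lost without the 0 h (0.0878), 24 h (0.0657), 96 h (0.0747) or 192 h array (0.187). DNM1, the neuronal dynamin that cuts vesicles from the membrane, read 82.1, 55.5, 74.7, 112 and 111.9 (0.72 ± 0.30, adjusted p = 0.249). DNM3 was at 0.58, SYNJ1, a lipid phosphatase that helps shed the clathrin coat, at 0.29 and AMPH, amphiphysin, at 0.08. AMPH stayed between 202.2 and 221.7 on all 5 arrays.

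Of the 9 genes that rose, 7 had their largest step between 48 and 96 h, and the exceptions were SNAP91 (24 to 48 h) and SYT4 (96 to 192 h). Over all 241 genes that rose on these arrays, 51.9% had their largest step there. That interval is longer than each of the earlier ones, and not every rise came late: SYT17 was already 2-fold above 0 h at 48 h on the way to a log2 ratio of 1.68 at 192 h, and SYT4 had a log2 ratio of 0.81 at 48 h and 1.15 at 192 h. In log2 units that step was 1.59 for CADPS, 1.37 for NSG2, 1.28 for ICA1 and 0.97 for SNAP25. For these 4 genes the step from 96 to 192 h lay between 0.35 and 0.51. Over the 4 induced arrays in order, the 42 tested genes had a median log2 ratio to 0 h of 0.02, 0.20, 0.39 and 0.36, and all tested genes one of -0.002, 0.009, 0.02 and -0.009. Counted on signal + 4.7, 11 of the 42 were at least 2-fold above 0 h at 192 h and 0 at least 2-fold below (12 in all with an offset 4 times smaller and 9 with one 4 times larger), where 2.29% and 1.93% of all tested genes were. At 24 h only SYP was 2-fold above, and SV2C and RAB3A were 2-fold below, against 0.678% and 0.946% of all tested genes. At 48 h, on the same scale, SYT17 was 2-fold above and RPH3A 2-fold below, against 1.08% and 0.653%. At 96 h 9 were 2-fold above and 2 (SYT2 and SNAP23) 2-fold below, against 2.20% and 1.17%. The signal was higher at every successive time point for 7 of the 42 (SYT11, SYT17, VAMP1, SYN2, RIMS2, PCLO and SNAP91), against 2.33% of all tested genes, and lower at every step for 0, against 2.18%.

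The lowest signal lay at 0 h for 18 of the 42 genes (42.9%, against 21.7% of all tested genes) and at 24 h for 13 (31%, against 19.1%). No tested vesicle gene had its lowest signal at 192 h (0 of 42, against 23.7%) or its highest at 24 h (0 of 42, against 18.9%). Among the 13 lowest at 24 h were DNM1, SYN1, VAMP2, SV2A, RAB3A and RAB3B, which were thus below 0 h first and nearer to it or above it later.

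**Figure D5:**
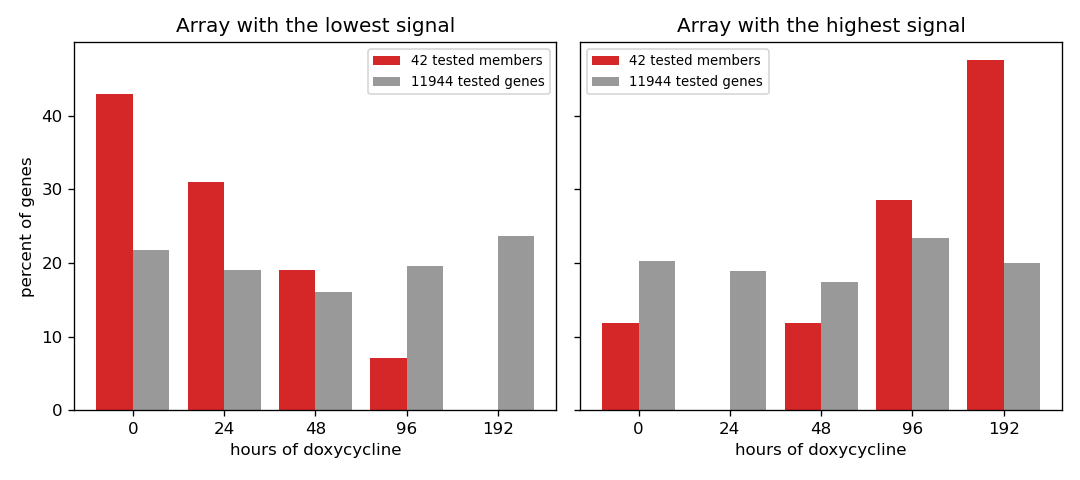
Percent of genes (y axis) whose lowest (left) or highest (right) signal fell on each array (x axis, hours of doxycycline), for the 42 tested vesicle genes (red) and the 11944 tested genes (grey). The vesicle genes were most often lowest at 0 h (42.9%) and highest at 192 h (47.6%).

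The 9 genes with a probe set that were not tested, SYT3, SYT5, SYT9, SYT12, SYN3, SV2B, RAB27B, RIMS1 and CADPS2, had mean signals of 2.66 to 10.86. In this range MAS5 values scatter: SYT12 read 21.5 at 24 h and between 2.9 and 7.7 on the others. SV2B, a vesicle glycoprotein, read 3.5, 2.7, 3.6, 14.9 and 22.2, low on the first 3 arrays and higher on the last 2, with a line change of 1.93 and no test.

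A second list held 101 other genes of vesicle fusion, acidification, priming and endocytosis, such as further SNAREs, proton pump subunits and clathrin adaptors. Of 79 tested, 3 rose and 0 fell (3.8%, near the 3.47% of all tested genes), with a median change of 0.13. In limma 16 of the 79 had an unadjusted p under 0.05, against 17.0% of all tested genes. RIMBP2, which links RIM proteins to calcium channels, rose from 77.4 to 170.2 (1.07 ± 0.20, adjusted p = 0.0106). NAPB, the brain form of the SNAP adaptor that disassembles SNAREs, rose from 113.6 to 227.5 (0.94 ± 0.19, adjusted p = 0.016). SYTL4, granuphilin, a RAB27 effector on secretory granules, rose from 97.1 to 206 (1.10 ± 0.24, adjusted p = 0.0249). None of the 79 passed without the 0 h array. PACSIN1 (1.08, adjusted p = 0.159) and CALY (1.26, 0.068) did not pass.

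Across the 5 arrays the median signal was 16 to 19, lowest at 24 h, and 5.34% to 8.15% of values lay at the floor. With array medians set equal the median change of all tested genes shifted to -0.11, and 193 genes rose and 252 fell, against 241 and 174; of the vesicle genes 9 rose and 2 fell. The poly-A spike-in controls differed from 0 h by 0.10, -0.45, -0.61 and -0.25 log2 units at 24, 48, 96 and 192 h. With their level as a covariate 7 vesicle genes rose and 0 fell: SYT4 (adjusted p = 0.0747), SNAP91 (0.142), STX1A (0.168) and SNAP23 (0.129) did not pass, CADPS, ICA1, NSG2, SNAP25, SYT11 and SYT17 did, and NSG1 (0.0314) was added. With time in hours in place of steps SYT4 (0.0683), STX1A (0.105) and SNAP23 (0.114) did not pass and NSG1 (0.0357) did. The sympathetic markers PHOX2A, HAND2, GATA3, ISL1, DBH and CHGA were over the signal filter, while TH was under it (2.1 at 0 h and 28.5 at 192 h). CHGA, a granule protein, rose from 998.2 to 1756.3 and was the only 1 of these markers past the threshold. PHOX2A (0.616, adjusted p = 0.0629), HAND2 (0.997, 0.108) and ISL1 (0.753, 0.119) had positive changes that did not pass. GATA3 (0.142, 0.72) and DBH (-0.008, 0.994) did not pass either, and DBH read 137 at 0 h and 103.3 at 192 h. Summed signals over the arrays were 18.3 to 41.7 for 3 Schwann cell, 50.8 to 108.8 for 6 blood or endothelial and 76.8 to 103 for 5 epithelial markers, with 0 members past the threshold. For 6 mesenchymal markers the sum was 1032.4 to 1611.9, most of it TWIST1, which read 1336 at 0 h and 945.6 at 192 h (adjusted p = 0.0559); its part in the results was not tested. In such bulk samples fewer cells of a type and less RNA per cell cannot be told apart.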

How the data were processed

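Expression was measured on 5 single-channel arrays, 1 per time point, so a p-value here reflects how single arrays scatter about a line. The values the authors deposited are taken as MAS5 signals on a log2 scale, because undoing log2 gave multiples of 0.1 (within 0.01) for 100% of them, with a floor at 1. MAS5 and GCOS are named, without versions, in the submitters' processing notes; how the log, the floor and the scaling were set is not given in the sources used here. The trimmed mean (2% from each end) was 100.02 to 100.03, so no further scaling was done.

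An offset of 4.7 (median over arrays of the 25th percentile) was added to the linear signals and log2 taken, which understates changes of dim genes. In GEO's annotation of the platform 41091 probe sets have 1 gene; symbols were checked by gene identifier in RefSeq (GRCh38.p14; 41037 found, 0 changed). Genes with a mean signal of at least 17.9 (11944 of 19775) entered a limma 3.58.1 fit (R 4.3.3; lmFit, eBayes with trend=TRUE, two-sided, 3 residual and 9.07 prior degrees of freedom) on time steps 0 to 4, with Benjamini-Hochberg adjustment over all of them. Other probe sets got a least-squares line without a test. The fit was tested on simulated data with straight trends and normal scatter drawn separately for each gene. No shift of a whole array was simulated, so the shares found there need not hold for the real arrays. In the simulated data the fit recovered 36.8% of 2-fold and 75% of 4-fold trends, and 2.82% of its calls were false. A change near 2-fold that did not pass can thus be a missed one. Ratios to 0 h have no test. Alternatives were the offset, filter, array scaling, time axis, probe set choice, spike-in covariate and leaving out each array. All genes past the threshold or 2-fold apart at 192 h are given by array, the others by change. The genes and lists were chosen with earlier results of these data known. Detection calls were not analysed here. The number of arrays limits the precision.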

Additional observations from a re-analysis of the deposited data

How the results depend on the processing

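The number of vesicle genes past the threshold was 10, and 4 to 11 when each array was left out in turn (3 to 10 rose, 0 to 1 fell; 4 with the 192 h array left out, 6 with the 0 h array left out). The median change ranged from 0.37 to 0.63 in those fits, the highest being without the 0 h array, and the count of other pathway genes from 0 to 3. Of all tested genes 2.01% passed with 192 h left out and 1.59% with 0 h left out, against 3.47% in the main fit. SYT11 passed under all 14 alternatives, SNAP25 and SYT17 under 13, CADPS, ICA1 and NSG2 under 12, SNAP23 and SYT4 under 9, SNAP91 under 8 and STX1A under 5, and none of these 10 genes changed sign. The 48 h array is the middle time step, so leaving it out cannot alter a fitted change or its sign, only the p-value. Without a signal filter 1 vesicle gene passed (1 rose, 0 fell) and 0 other pathway genes; 19775 genes were then tested and the prior degrees of freedom were 3.68 against 9.07. The number that fell was 2 with array medians set equal (SYT2 added), and 0 with time in hours, with the mean of a gene's probe sets and with the spike-in covariate; the other pathway genes numbered 0 with the mean of probe sets and 1 with the spike-in covariate. The cause was not tested. Genes at least 2-fold from 0 h at 192 h numbered 9 to 12 under the 7 alternatives tried.

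Changes of opposite sign were seen only in vesicle genes that did not pass, 25 values in all. With array medians set equal they were AMPH -0.033, SV2A -0.11 and SYNGR1 -0.10. With quantile normalization SV2A was at -0.005. With time in hours CPLX1 was at 0.098, SV2C at 0.014 and SYNGR1 at -0.10. With the spike-in covariate CPLX1 was at 0.16, RAB3A at -0.84, RAB3B at -0.027, SV2A at -0.16 and SYNGR1 at -0.39. As each array in turn was left out, the change ran from -0.62 to 0.45 for CPLX1, -0.19 to 1.52 for RAB3A, -0.064 to 0.045 for RAB3D, -0.079 to 0.65 for RPH3A, -0.13 to 0.41 for SV2A, -0.43 to 0.75 for SV2C, -0.027 to 0.61 for SYN1, -0.12 to 0.33 for SYNGR1, -0.27 to 0.077 for SYT6 and -0.20 to 0.87 for VAMP2. No paired analysis was possible because each group holds 1 array. Dim genes near the background limit what these arrays can show.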
